A study of Rattus norvegicus with 8 samples.

Results

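The solute carriers measured here were the genes of families 1, 2, 3, 4, 5, 6, 7, 9, 12, 13, 16, 17, 22 and 34 whose array symbol is Slc, the family number and a letter from a to o. By this rule 119 genes were found among the 14217 genes that the array annotation names, and each was read from its brightest probe set. Slc4a1ap and Slc7a6os fall under the rule by their symbols and are not carriers by name. The RNA came from glomeruli of male rats at 4 and 6 weeks of age, isolated from 1 kidney by magnetic retraction, from 2 rats in each of the 4 groups of strain and age, each rat on an array of its own (8 arrays). Dahl rats are the salt-sensitive strain that becomes proteinuric spontaneously, and SHR rats are the spontaneously hypertensive strain without proteinuria. Both strains were kept on a low-salt diet, no transgene or drug was used, and the labels do not say whether the rats of a group were littermates. The deposited values are log2 intensities, and the array medians ran from 4.11 to 4.16, so a value below 4 was treated as low signal. Differences are Dahl minus SHR on the log2 scale, and a gene was called where limma's adjusted p was under 0.05 over the 31042 probe sets tested.

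Solute carriers move sugars, amino acids, ions, nucleosides and organic acids across membranes, and the renal proximal tubule holds many of them at its brush border and basolateral side to recover filtered solutes and secrete waste. The glomerulus is a capillary tuft of podocytes, endothelium and mesangial cells, and most of the tubular carriers are not known as genes of these cells. Isolated glomeruli carry fragments of tubule to a varying degree, so tubular genes are read alongside glomerular ones in such RNA.

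Slc17a3 rose in Dahl rats while most tubular carriers had lower values there, and its neighbour Slc17a1 had the widest gap between the pair of Dahl rats aged 6 weeks. Slc34a1, the sodium-phosphate cotransporter of the brush border, was the brightest of these carriers. Their promoters are therefore shown, as the 250 bases before the annotated start site in the RefSeq annotation of the rat build GRCr8. Slc17a3 lies on the minus strand with its window at chr17:41723110-41723359, Slc17a1 on the minus strand at chr17:41681175-41681424, and Slc34a1 on the minus strand at chr17:9238984-9239233. Capitals mark matches to TTAATNATTAA or to GTTAAT, a shortened core palindrome and a half-site of the motif bound by HNF1 factors, transcription factors of kidney tubule and liver.
Slc17a3: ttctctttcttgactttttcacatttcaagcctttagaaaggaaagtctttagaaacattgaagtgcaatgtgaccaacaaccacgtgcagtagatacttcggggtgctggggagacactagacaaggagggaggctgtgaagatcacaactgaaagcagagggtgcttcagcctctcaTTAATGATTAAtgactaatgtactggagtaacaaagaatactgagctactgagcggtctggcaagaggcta
Slc17a1: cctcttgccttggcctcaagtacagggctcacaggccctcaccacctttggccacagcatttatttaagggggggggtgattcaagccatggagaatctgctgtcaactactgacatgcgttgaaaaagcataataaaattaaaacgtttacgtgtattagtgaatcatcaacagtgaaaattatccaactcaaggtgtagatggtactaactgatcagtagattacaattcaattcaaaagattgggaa
Slc34a1: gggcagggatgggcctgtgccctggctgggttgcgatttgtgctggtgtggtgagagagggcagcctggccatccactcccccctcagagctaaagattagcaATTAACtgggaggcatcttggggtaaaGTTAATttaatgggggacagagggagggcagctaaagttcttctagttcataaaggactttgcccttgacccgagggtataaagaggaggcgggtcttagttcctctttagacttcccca
The match in the Slc17a3 window was TTAATGATTAA, from 71 to 61 bases before the start site. No match was found in the Slc17a1 window. The Slc34a1 window held the half-site from 147 to 142 bases before the start, on the other strand, and again from 120 to 115 bases before it.

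Over both ages 6 of the 119 carriers were higher in Dahl rats (5.04%) and 31 were lower (26.1%), against 10.6% higher and 24.2% lower among all probe sets. Among all genes, each read from its brightest probe set, 13.2% were higher and 21.2% lower. The share of lower carriers was thus near the background, and that of higher carriers was below it. Of the 31 lower carriers, 20 had low signal on every array, with differences from -0.06 to -0.28. Genes at such low signal shifted as a whole, with 39.2% of the 4395 genes of this kind lower. The other 11 lower carriers were brighter, and 9 of all 31 stood on the list of proximal tubule carriers. The median difference of the 119 was -0.18, and that of all genes was -0.05. Every Dahl array lay above every SHR array for 3 carriers and below for 54, and the background shares were 8.15% and 42.1%. Of the 54, 33 had low signal on every array, and nothing about carriers as a class was read from these counts. Without Dahl 6 weeks replicate 2, the array described next, the median difference of the 119 was -0.12, and that of all genes was -0.05.

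The proximal tubule carriers shared a shift that differed from rat to rat. Each list was summarised per array by a score, namely the median deviation of its genes from their own means over the 8 arrays. For the 35 proximal tubule carriers the score was 0.16 and -0.08 in Dahl rats at 4 weeks, -0.20 and -1.74 in Dahl rats at 6 weeks, 0.59 and 0.87 in SHR rats at 4 weeks, and 0.17 and 0.33 in SHR rats at 6 weeks. All SHR arrays thus stood above all Dahl arrays, and Dahl 6 weeks replicate 2 stood apart from the other 7 arrays. For 29 proximal tubule markers that are not solute carriers, such as the endocytic receptor gene Cubn and the brush border peptidase gene Anpep, the score was 0.07 and -0.01, -0.15 and -1.86, 0.60 and 0.79, and 0.18 and 0.41 in the same order. The carriers and the other tubular genes therefore had the same order of strains and the same low array. Podocyte markers (15 genes) ran the other way, with scores of -0.03 to 0.47 in Dahl rats and of -0.35 to -0.07 in SHR rats. With bulk RNA, fewer tubular cells and less RNA per tubular cell cannot be told apart.

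**Figure D1:**
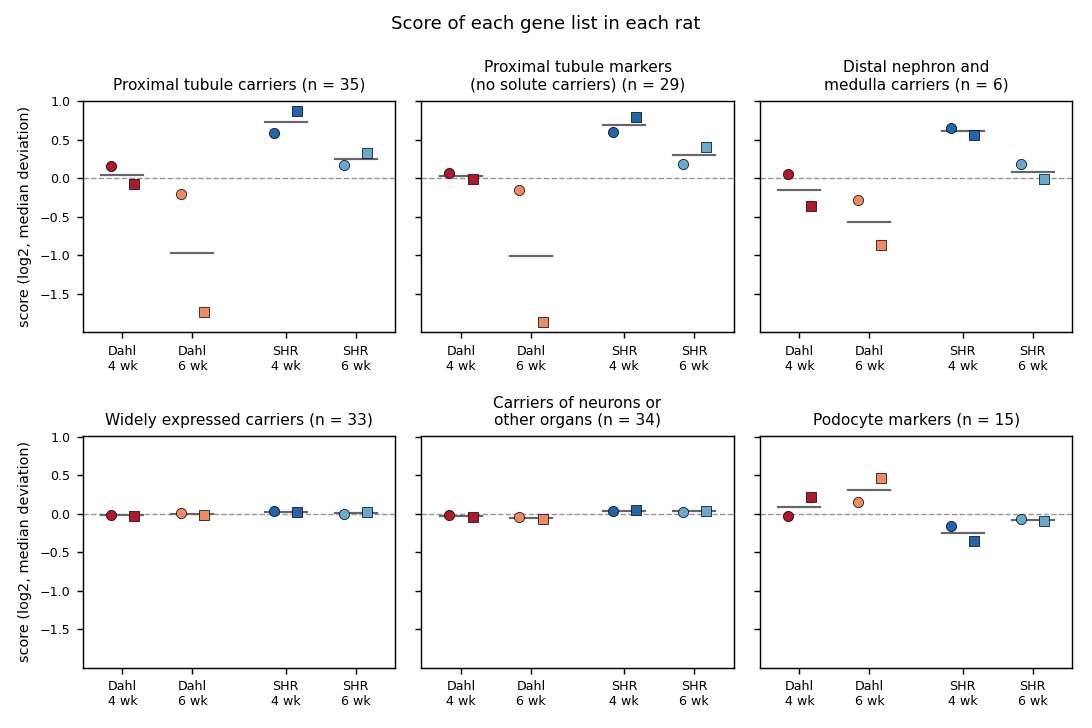
Score of each gene list (y axis, log2, median deviation of its genes from their means over the 8 arrays) in the 8 rats, grouped by strain and age; circles are replicate 1, squares are replicate 2 and grey lines are group means. The proximal tubule carriers and the other proximal tubule markers both fall to their lowest score in Dahl 6 weeks replicate 2 (-1.74 and -1.86), while the widely expressed carriers stay between -0.03 and 0.03.

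The gap between the pair of Dahl rats aged 6 weeks (replicate 1 minus replicate 2) was used to find the carriers that share this shift. It was at least 1 on the log2 scale for 41 of the 119 carriers (34.5%), against 2.63% of all probe sets and 4.03% of all genes. Of the 41 carriers, 28 were on the list of proximal tubule carriers, 6 on that of widely expressed carriers, 2 on that of distal nephron carriers, 1 on that of carriers of neurons or other organs, and 4 on no list. In 40 of them Dahl 6 weeks replicate 2 was the lowest of the 8 arrays. The gap was 1.15 for Slc22a2, an organic cation transporter and the last one inside the limit, and 0.98 for Slc6a17, a neutral amino acid transporter of neurons and the first one outside. At the other end it was 2.63 for Slc17a1, and no other carrier had a wider one. Only 5 carriers had a gap of -0.50 or less, the lowest being -1.02 for Slc2a3, a glucose transporter also known from leukocytes, platelets and neurons.

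Of the 41 carriers that followed the gap, 38 had lower means in Dahl rats over both ages, with a median difference of -0.90. The 573 genes of the whole array with such a gap had a median of -0.93, and the tubular marker score differed by -0.98 between the strains. Within 0.5 of that score difference lay 27 of the 41 carriers, 6 lay further below it and 8 further above it. Only 6 of the 41 were called lower and 1 was called higher. The gap is part of the spread within a group, and the median SE of the strain difference was 0.45 for these 41 carriers against 0.13 for the other carriers above low signal. Its low array is also part of the Dahl mean. Choosing by the gap therefore in itself lowers the strain difference of the 41 carriers and of the 573 genes. Without Dahl 6 weeks replicate 2 the median of the 41 carriers was -0.45, with 35 of 41 below 0.

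**Figure D2:**
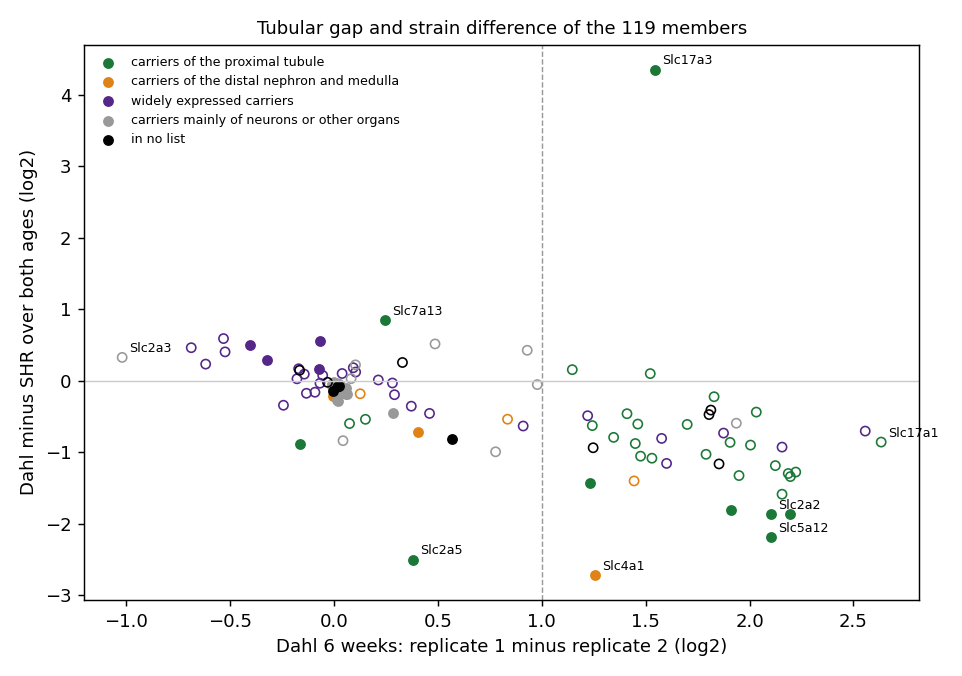
Gap between the 2 Dahl rats aged 6 weeks (x axis, replicate 1 minus replicate 2, log2) against the strain difference over both ages (y axis, log2) for the 119 carriers, coloured by list; filled points were called by limma and the dashed line marks a gap of 1. To the right of the line all carriers lie below or close to 0 except Slc17a3 at 4.35, and the called Slc2a5 (-2.50) lies to the left of it with low signal in all Dahl rats.

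Slc17a3 went against the shared shift. It encodes a type I sodium-phosphate cotransporter relative, known as NPT4, that exports urate and other organic anions at the apical side of the proximal tubule. Its log2 intensity was 9.07 and 8.34 in Dahl rats at 4 weeks, 8.41 and 6.87 in Dahl rats at 6 weeks, 4.12 and 4.04 in SHR rats at 4 weeks, and 3.44 and 3.69 in SHR rats at 6 weeks. Every Dahl rat was above every SHR rat, and the SHR rats were at or near low signal. The difference was 4.35 ± 0.39 (SE, 4 rats per strain; limma adjusted p = 0.0075), and no fold was read from it because of the low signal in SHR rats. It was 4.63 at 4 weeks (limma adjusted p = 0.016) and 4.07 at 6 weeks (limma adjusted p = 0.040).

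The Dahl rat with little tubular signal was also the lowest of the Dahl rats for Slc17a3, which had a gap of 1.55. After the tubular marker score of each array was subtracted, the values in Dahl rats were 8.998, 8.35, 8.56 and 8.73 in the order above. They then spanned less than before. The subtraction was not read for SHR rats, whose values at or near low signal need not scale with tubular RNA. With the score as a covariate in limma the difference was 5.24 (adjusted p = 0.027), although that slope rests mainly on the gap between the pair of Dahl rats aged 6 weeks and was applied to SHR values at or near low signal as well. The call over both ages was kept when any 1 of the 8 arrays was left out (3.96 to 4.74, limma adjusted p of 0.0055 to 0.035). At 4 weeks and at 6 weeks it was kept with 2 of the 8 arrays left out in turn, those of Dahl rats aged 6 weeks, and the adjusted p reached 0.070 and 0.14. Slc17a3 is read by a single probe set here, and whether the strains differ in sequence under its probes was not tested.

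None of the neighbours of Slc17a3 was called between the strains over both ages. In the RefSeq annotation the order on chromosome 17 is Slc17a4, Slc17a1, the long noncoding RNA LOC134482855, Slc17a3 and Slc17a2. Slc17a1, the founding type I phosphate cotransporter NPT1 that also carries urate, was at 8.001, 7.93, 6.75 and 4.12 in the Dahl rats compared with 7.87, 8.20, 6.86 and 7.30 in the SHR rats. The strains overlapped and only Dahl 6 weeks replicate 2 was far from the rest, for a difference of -0.86 ± 0.61 (SE; limma adjusted p = 0.29). Slc17a2 differed by -0.59 (adjusted p = 0.32) and Slc17a4, known mainly from intestine, by 0.43 (adjusted p = 0.20). Slc17a4 was higher in both Dahl rats than in both SHR rats at 4 weeks by 1.14, without a call (adjusted p = 0.092), and the difference was -0.28 at 6 weeks (adjusted p = 0.55). Once the tubular marker score was a covariate, Slc17a1 was higher in Dahl rats by 0.66 (limma adjusted p = 0.036), the opposite direction. In the same fit Slc17a2 also turned, to 0.52 (adjusted p = 0.16), and Slc17a4 differed by 0.96 (adjusted p = 0.099), so the estimates of all 3 neighbours were above 0. Slc17a1 had the steepest fall in Dahl 6 weeks replicate 2, and the fitted slope on the score was 1.54. That slope rests mainly on this array. Without the array and without the covariate the Slc17a1 difference was -0.20. It ranged from -1.52 to -0.20 with each array left out in turn, and no rise of Slc17a1 was read from the covariate fit.

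**Figure D3:**
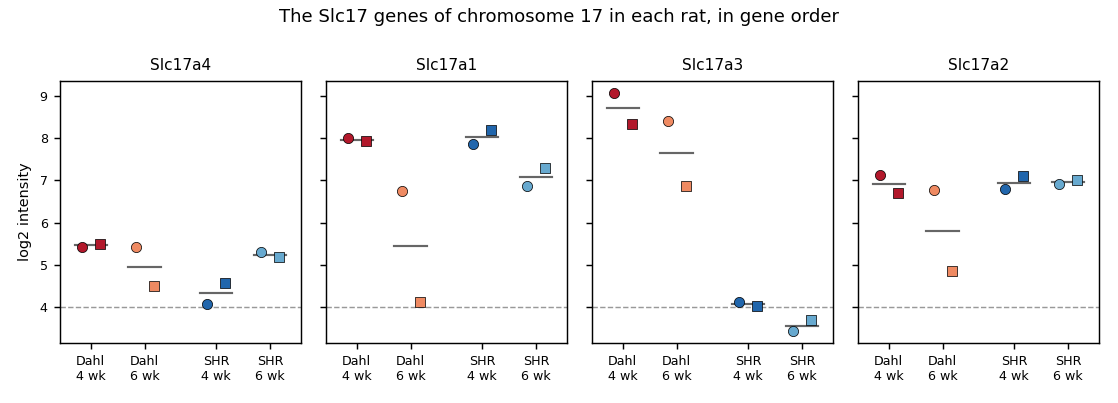
Log2 intensity (y axis) of the 4 Slc17 genes of chromosome 17 in each rat, in gene order; circles are replicate 1, squares are replicate 2, grey lines are group means and the dashed line marks low signal at 4. Slc17a3 is the only 1 of the 4 with every Dahl rat (6.87 to 9.07) above every SHR rat (3.44 to 4.12).

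Among the other proximal tubule carriers 1 more was called higher, and it did not follow the gap. Slc7a13, an aspartate and glutamate transporter of the last proximal segment, was at 8.10, 7.88, 8.61 and 8.36 in the Dahl rats compared with 6.75, 6.38, 7.79 and 8.66 in the SHR rats. Both Dahl rats were higher at 4 weeks, and the strains overlapped at 6 weeks. The difference was 0.85 ± 0.23 over both ages (SE; limma adjusted p = 0.045), 1.43 at 4 weeks (adjusted p = 0.054) and 0.26 at 6 weeks (adjusted p = 0.56). The call was kept with 1 of the 8 arrays left out in turn (SHR 6 weeks replicate 2), with adjusted p from 0.041 to 0.12 and differences from 0.63 to 1.07. When limma included the tubular marker score, Slc7a13 differed by 1.03 and was not called (limma adjusted p = 0.21). Slc22a2 (0.16 ± 0.30, adjusted p = 0.68) and Slc16a12, a creatine transporter (0.10 ± 0.36, adjusted p = 0.83), followed the gap, had means above 0 and were not called.

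Slc2a5, the fructose transporter GLUT5 of the brush border, was lower in Dahl rats. Its values were 2.87, 2.81, 2.92 and 2.54 for Dahl rats against 5.18, 5.23, 5.62 and 5.13 for SHR rats. Low signal was found in all Dahl rats and in none of the SHR rats, and the groups did not overlap. The difference was -2.50 ± 0.14 (SE; limma adjusted p = 0.0031), with -2.36 at 4 weeks (adjusted p = 0.0086) and -2.64 at 6 weeks (adjusted p = 0.014). It was -2.32 with the tubular marker score as covariate (limma adjusted p = 0.045), and from -2.62 to -2.38 with each array left out in turn (adjusted p of 0.0053 to 0.018). Since the Dahl values lie at low signal, the size is that of the intensities as deposited, and a gap of 1 between Dahl rats could not have been read for Slc2a5 (0.38). A single probe set reads Slc2a5 here, and whether the strains differ in sequence under its probes was not tested.

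The proximal tubule carriers as a list had 9 of 35 members lower and 2 higher over both ages, with a median difference of -0.88 and 31 of 35 below 0. These shares, 25.7% lower and 5.71% higher, stood against 24.2% and 10.6% of all probe sets and 21.2% and 13.2% of all genes. The counts alone did not set the list apart. At 4 weeks 2 were lower and 1 higher with a median of -0.65, and at 6 weeks 1 was lower and 1 higher with a median of -1.16. Without Dahl 6 weeks replicate 2 the list had a median of -0.51, against -0.05 for all genes. The 29 other proximal tubule markers had 5 lower and 1 higher (Mme, also a podocyte gene), with a median of -1.04, and without that array a median of -0.62.

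Slc5a12, Slc13a2, Slc2a2, Slc22a5 and Slc6a20b were called lower in Dahl rats over both ages. Slc5a12, a low-affinity lactate cotransporter, was at 9.11, 9.11, 8.54 and 6.44 in the Dahl rats compared with 11.08, 11.38, 9.69 and 9.80 in the SHR rats. Slc13a2, the citrate and dicarboxylate cotransporter of the brush border, was at 7.10, 7.55, 7.70 and 5.51 in the Dahl rats compared with 9.78, 10.04, 7.74 and 7.79 in the SHR rats. Neither overlapped between strains, though Dahl 6 weeks replicate 1 came close to the lowest SHR rat for Slc13a2. Slc2a2, the basolateral glucose transporter GLUT2, was at 8.41, 8.70, 8.56 and 6.46 against 10.19, 10.74, 9.40 and 9.25. Slc22a5, the carnitine transporter OCTN2, was at 9.56, 9.93, 9.51 and 8.28 against 10.83, 11.04, 10.45 and 10.67. All Dahl rats were below all SHR rats for both, with the lowest value in Dahl 6 weeks replicate 2.

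The differences over both ages were -2.19 ± 0.48 for Slc5a12 (SE; limma adjusted p = 0.032), -1.87 ± 0.51 for Slc13a2 (adjusted p = 0.046), -1.86 ± 0.50 for Slc2a2 (adjusted p = 0.044) and -1.43 ± 0.30 for Slc22a5 (adjusted p = 0.030). Slc6a20b, an imino acid transporter, differed by -1.80 ± 0.46 (adjusted p = 0.041). These 5 followed the gap. Without Dahl 6 weeks replicate 2 all 5 were still called lower, with differences of -1.66, -1.32, -1.34, -1.12 and -1.33 in the order given. All 5 calls were lost when any array other than those of Dahl rats aged 6 weeks was left out, with adjusted p up to 0.099, 0.12, 0.12, 0.095 and 0.12. When limma was given the tubular marker score as covariate, Slc5a12 was called (-0.99, limma adjusted p = 0.043), and the other 4 ranged from -0.64 to -0.72 and were not called. Without the covariate the dimmer probe set of Slc5a12 differed by -1.73 and was not called (limma adjusted p = 0.051). Its mean in Dahl rats was 3.36, at low signal, and its gap was -0.42.

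**Figure D4:**
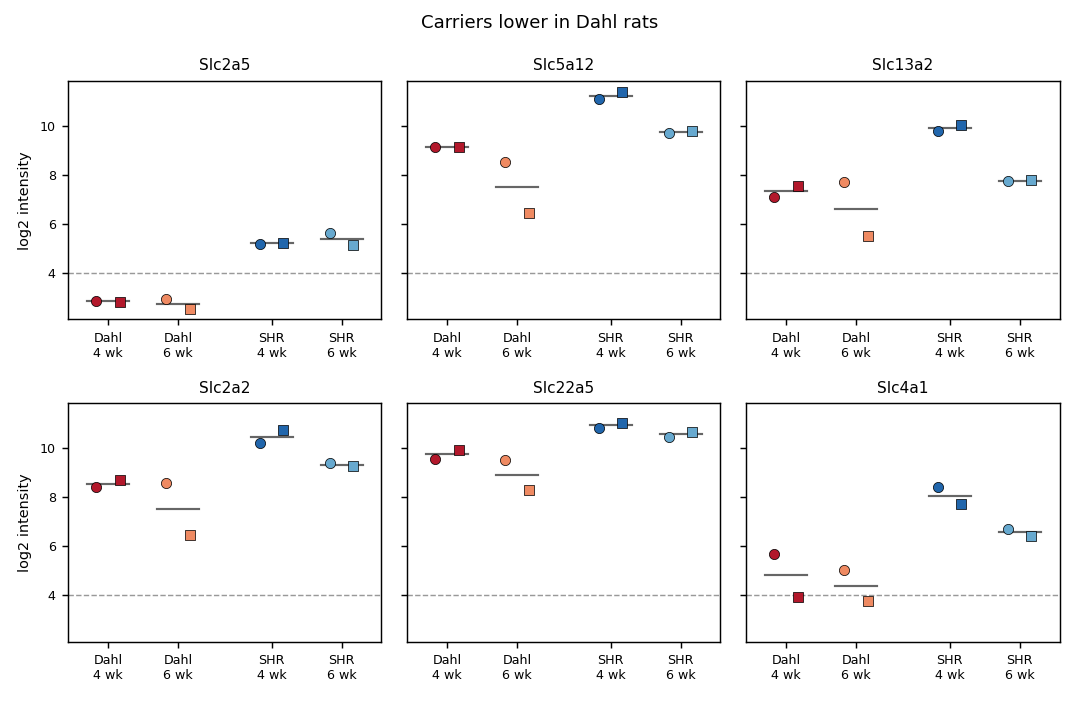
Log2 intensity (y axis) of 6 carriers called lower in Dahl rats, in each rat; circles are replicate 1, squares are replicate 2, grey lines are group means and the dashed line marks low signal at 4. Slc2a5 lies below 4 in all Dahl rats with little spread, whereas Slc5a12, Slc13a2, Slc2a2 and Slc22a5 are lowest in Dahl 6 weeks replicate 2, at 6.44, 5.51, 6.46 and 8.28.

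Of the smaller falls, Slc6a20a, a paralogue of Slc6a20b, differed by -0.89 ± 0.22 (SE; limma adjusted p = 0.040) with overlapping strains and no gap. Its other probe set was nearly as bright (mean 4.57 against 4.58) and differed by -1.92 (adjusted p = 0.011), with a gap of 0.97. Whether the paralogues share signal was not tested. Slc22a24, an organic anion transporter relative, differed by -0.82 ± 0.22 (adjusted p = 0.047). Slc22a7, the organic anion transporter OAT2, had low signal on every array and differed by -0.09 (adjusted p = 0.019). Left out in turn, SHR 4 weeks replicate 1 was the only array without which Slc6a20a stayed called, and Slc22a24 stayed called without Dahl 4 weeks replicate 1 or Dahl 6 weeks replicate 1 (adjusted p up to 0.10 and 0.13).

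Many of the brightest tubular carriers had lower means in Dahl rats and were not called. Slc34a1 was at 13.62, 13.40, 13.39 and 12.15 in the Dahl rats and ranged from 13.71 to 13.79 in the SHR rats, which did not overlap (-0.63 ± 0.29 SE, limma adjusted p = 0.13). The sodium-glucose cotransporter SGLT2 gene Slc5a2 differed by -1.03 ± 0.43 (adjusted p = 0.11), and the sodium-proton exchanger NHE3 gene Slc9a3 by -1.28 ± 0.51 (adjusted p = 0.099). For the organic anion transporters OAT1 and OAT3, Slc22a6 differed by -0.90 ± 0.47 (adjusted p = 0.17) and Slc22a8 by -1.19 ± 0.49 (adjusted p = 0.11). The urate exchanger URAT1 gene Slc22a12 differed by -0.61 ± 0.37 (adjusted p = 0.23). In each of these 6 the lowest value was that of Dahl 6 weeks replicate 2. When limma was given the tubular marker score as covariate, the differences were 0.07 for Slc34a1, -0.01 for Slc5a2, -0.02 for Slc9a3, 0.23 for Slc22a6, 0.04 for Slc22a8 and 0.19 for Slc22a12, none called. The urate and glucose transporter gene Slc2a9 and the SGLT1 gene Slc5a1 had low signal on every array and differed by -0.54 (adjusted p = 0.062) and -0.60 (adjusted p = 0.22).

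Of 6 carriers of the distal nephron and medulla limma called 3 lower and none higher (5 and 0 at an unadjusted p under 0.05), against 24.2% and 10.6% of all probe sets, with a median of -0.63. Of these 3, Slc9a2 was at low signal, where 39.2% of genes were called lower. Slc4a1, the chloride-bicarbonate exchanger AE1 of red cells and of acid-secreting intercalated cells, was at 5.70, 3.92, 5.01 and 3.75 in the Dahl rats compared with 8.41, 7.71, 6.72 and 6.41 in the SHR rats. The strains did not overlap, and the difference was -2.72 ± 0.52 (SE; limma adjusted p = 0.026). Its dimmer probe set differed by -0.84 (adjusted p = 0.022). Slc5a3, the myo-inositol cotransporter of the medulla, differed by -0.72 ± 0.14 (adjusted p = 0.027), and Slc9a2, the sodium-proton exchanger NHE2, by -0.21 at low signal (adjusted p = 0.028). Slc4a1 and Slc5a3 stayed called without Dahl 4 weeks replicate 1 or Dahl 6 weeks replicate 1, and without any other array the adjusted p reached 0.081 and 0.084. None of the 6 was called when Dahl 6 weeks replicate 2 was left out.

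Distal carriers not called included the salt transporters that diuretics block. Slc12a1, the NKCC2 gene of the thick ascending limb, differed by -0.54 ± 0.28 (SE; limma adjusted p = 0.17), and Slc12a3, the NCC gene of the distal convoluted tubule, by -1.40 ± 0.47 (adjusted p = 0.070). Slc9a4, the exchanger NHE4, had low signal on every array and differed by -0.18 (adjusted p = 0.061). Among 20 distal nephron markers that are not solute carriers 8 were lower (40%) and none higher, against 21.2% and 13.2% of all genes. At an unadjusted p under 0.05 the counts were 11 and 0. The scores of these markers were 0.13, -0.61, -0.06 and -1.001 for Dahl rats against 0.49, 0.40, 0.72 and 0.03 for SHR rats. The intercalated cell genes Foxi1 and Atp6v1g3 were called lower, with differences of -1.78 and -1.83 (adjusted p = 0.023 and 0.034). Of 6 erythroid markers none was higher and 2, Rhag and Gata1, were lower (1 and 3 at an unadjusted p under 0.05). Rhag, Gata1, Ahsp and Epb42 were at low signal on every array, where 39.2% of all genes were called lower. Hbb, Epb42 and Alas2 were above SHR by 1.38, 0.67 and 0.23 without a call (limma adjusted p = 0.10, 0.075 and 0.69). Slc4a1 itself followed the gap (1.26). With the tubular marker score as covariate it differed by -2.03 and was not called (limma adjusted p = 0.22). That score is made of proximal tubule markers, and what part distal tubular RNA had in the difference of Slc4a1 was not tested.

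Widely expressed carriers stood close to 0 in every rat, with list scores from -0.03 to 0.03 and a median strain difference of -0.03 over 33 genes. None was called lower by limma and 4 were higher (12.1%, near the 10.6% of all probe sets and the 13.2% of all genes), and at an unadjusted p under 0.05 the counts were 5 lower and 6 higher. Slc12a2, the sodium-potassium-chloride cotransporter NKCC1, was at 9.44, 9.76, 9.93 and 9.995 in the Dahl rats compared with 8.99, 8.89, 9.49 and 9.54 in the SHR rats. At each age both Dahl rats were above both SHR rats, for a difference of 0.56 ± 0.08 (SE; limma adjusted p = 0.015). It was 0.66 at 4 weeks (adjusted p = 0.032) and 0.45 at 6 weeks (adjusted p = 0.093). When each array was left out in turn, the call over both ages was lost only without SHR 6 weeks replicate 1 or replicate 2. The adjusted p then reached 0.056, and the differences ran from 0.47 to 0.64. The call was also lost when limma included the tubular marker score (0.51, limma adjusted p = 0.15). Fitting strain alone and the methods' t-test lost it as well.

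Smaller rises were those of Slc4a7, Slc12a4 and Slc2a8. Slc4a7, a sodium-bicarbonate cotransporter, was at 4.66, 4.99, 4.99 and 5.39 in the Dahl rats and ranged from 4.34 to 4.62 in the SHR rats. It differed by 0.50 ± 0.12 (SE; limma adjusted p = 0.038), whereas its dimmer probe set differed by -0.01. Slc12a4, the potassium-chloride cotransporter KCC1, differed by 0.29 ± 0.07 (adjusted p = 0.043) and Slc2a8, the intracellular glucose transporter GLUT8, by 0.17 ± 0.04 (adjusted p = 0.035). Each of the 3 stayed called with 2 of the 8 arrays left out in turn, and the adjusted p reached 0.11, 0.12 and 0.090. When limma included the tubular marker score, the 3 differed by 0.26, 0.11 and 0.14 in the same order. None was called in that fit (limma adjusted p = 0.27, 0.18 and 0.25). Slc7a1, the cationic amino acid transporter CAT1, was higher in every Dahl rat than in any SHR rat without a call (0.59 ± 0.17, adjusted p = 0.052).

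**Figure D5:**
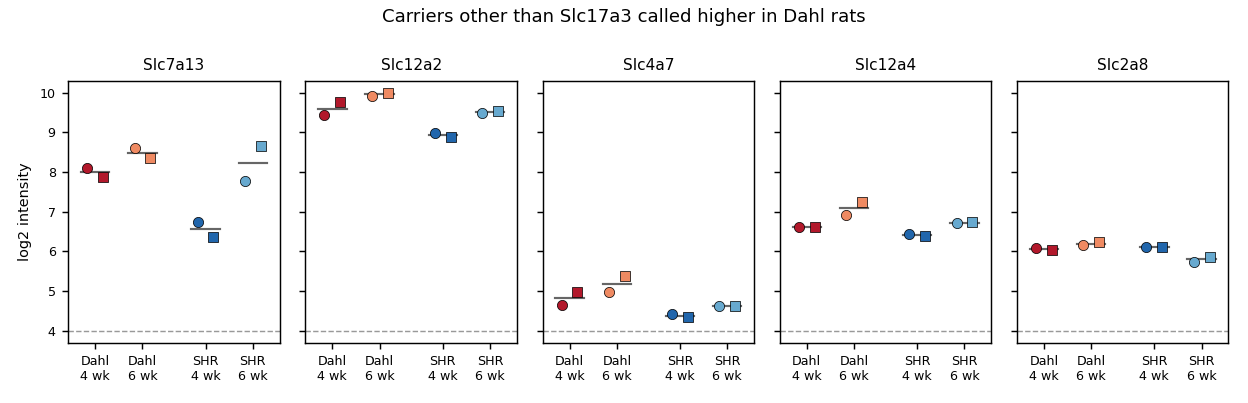
Log2 intensity (y axis) of the 5 carriers other than Slc17a3 called higher in Dahl rats, in each rat; circles are replicate 1, squares are replicate 2, grey lines are group means and the dashed line marks low signal at 4. The differences over both ages run from 0.17 for Slc2a8 to 0.85 for Slc7a13, and for Slc2a8 both Dahl rats lie below both SHR rats at 4 weeks.

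These rises were seen beside glomerular markers that also moved, none of them lower at an unadjusted p under 0.05. Of 15 podocyte markers 7 were higher (46.7%) and none lower, with a median of 0.48. Of 13 endothelial markers 6 were higher (46.2%) and none lower, with a median of 0.33. Of 11 markers of mesangium and smooth muscle 8 were higher (72.7%) and none lower, with a median of 0.82. Among all genes 13.2% were higher and 21.2% lower. Leukocyte markers (14 genes) had 6 higher (42.9%) and 5 lower (35.7%). Of the 5 lower, Cd8a, Cd3e, Cd3d and Cd163 were at low signal on every array, where 39.2% of genes were called lower. Only Mrc1 (-1.76) was brighter. List scores in Dahl rats ranged from -0.06 to 0.62 (endothelial), from 0.21 to 0.54 (mesangial) and from -0.02 to 0.42 (leukocyte). In SHR rats these scores ranged from -0.41 to -0.09, from -0.51 to -0.18 and from -0.24 to 0.31 in the same order. The part of these cells in the rises was not tested. Slc2a1, the glucose transporter GLUT1, differed by -0.03 ± 0.07 (limma adjusted p = 0.75), from 5.72 to 6.00 in Dahl rats and from 5.77 to 6.00 in SHR rats.

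Widely expressed carriers that followed the gap were Slc16a1, Slc16a6, Slc16a13, Slc6a8, Slc12a8 and Slc22a23. Slc16a1, the lactate and pyruvate transporter MCT1, had the lowest difference on the list, -1.16 (limma adjusted p = 0.070). Slc6a8, the creatine transporter, differed by -0.81 (adjusted p = 0.14). Slc22a23 had the second widest gap of all carriers (2.56) and a difference of -0.70 (adjusted p = 0.36).

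Of the 34 carriers known mainly from neurons or other organs 27 had low signal on every array. In all, limma called 16 lower and none higher (21 and 0 at an unadjusted p under 0.05), with a median of -0.08, which lay near the median of -0.07 over all genes at low signal. Slc4a10, Slc6a14, Slc6a15 and Slc5a7, carriers of bicarbonate, neutral and cationic amino acids, branched-chain amino acids and choline, differed by -0.27, -0.28, -0.18 and -0.13 (limma adjusted p = 0.0056, 0.010, 0.010 and 0.013). Their values lay between 2.54 and 3.63 on all arrays, with no overlap between strains. Of all genes at low signal 39.2% were called lower, and no level of these carriers was read from their falls.

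At 4 weeks 2 carriers were higher (Slc17a3 and Slc12a2) and 8 lower, against 5.63% and 6.41% of all probe sets. At 6 weeks 2 were higher (Slc17a3 and Slc2a8) and 3 lower (Slc2a5, Slc4a10 and Slc6a15), against 1.65% and 1.63%. The 8 at 4 weeks included Slc2a5 and Slc1a3, the glutamate transporter GLAST. Slc1a3 was read near low signal. Its other probe sets, with means of 2.11 and 1.89, differed by -0.06 and -0.05 over both ages. Slc1a3 was at 4.00 and 4.05 in Dahl rats and at 4.71 and 4.82 in SHR rats at 4 weeks, and at 3.94 and 3.66 against 3.92 and 4.02 at 6 weeks. The difference was -0.73 at 4 weeks (limma adjusted p = 0.023) and -0.17 at 6 weeks (adjusted p = 0.28), and its change between the ages did not pass the test (0.56, limma adjusted p = 0.26).

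The strain difference did not pass the test of a change with age for any carrier: 0 were higher and 0 lower in limma's interaction, where 0.235% and 0.283% of probe sets were, and 4 and 4 at an unadjusted p under 0.05. Nor was any carrier called between 4 and 6 weeks in Dahl rats, where 0.0515% of probe sets rose and 0.029% fell (3 carriers higher and 9 lower at an unadjusted p under 0.05). In SHR rats Slc1a3 fell with age by 0.79 and no carrier rose, against 1.5% of probe sets that rose and 0.915% that fell, and 8 carriers were higher and 11 lower at an unadjusted p under 0.05. Slc9a9, an endosomal sodium-proton exchanger, stood at 4.72 and 4.89 at 4 weeks and at 6.51 and 6.59 at 6 weeks in SHR rats (limma adjusted p = 0.059). Slc7a13 differed by 1.66 (adjusted p = 0.086) and Slc13a2 by -2.15 (adjusted p = 0.26) between those ages in SHR rats. Without Dahl 6 weeks replicate 1, replicate 2 alone stood for that group, and no change of carriers was read from that fit.

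Scaffolds and regulators of renal carriers gave a further list of 20 genes, of which 2 were higher, 2 lower and 7 followed the gap. The shares called, 10% higher and 10% lower, were below the 13.2% and 21.2% of all genes, so nothing was read from these counts. The gap was followed by 35% of the list, against 4.03% of all genes. Pdzk1, the brush border scaffold, differed by -0.78 (limma adjusted p = 0.20) and Hnf4a, a transcription factor of the proximal tubule, by -1.11 (adjusted p = 0.10), and both followed the gap. Oxsr1, a kinase that activates NKCC1, was higher by 0.17 (adjusted p = 0.0097) and the receptor gene Fgfr1 by 0.49 (adjusted p = 0.043). Nedd4l, a ubiquitin ligase of ion channels, was called lower with a difference of -0.26 (adjusted p = 0.042), as was Cul3, a ubiquitin ligase scaffold, with -0.23 (adjusted p = 0.0090).

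A promoter window was found for 97 of the 119 carriers. The palindrome TTAATNATTAA, searched on both strands, was found in 1 of the 97, that of Slc17a3 printed above, which lacks the leading G of the half-site, and for 0.113% of the 27457 genes with a window. The half-site GTTAAT, on either strand, was found in 8 of 97 (8.25%) and for 7.13% of all genes with a window. Among carriers that followed the gap it was in 5 of 32 windows (Slc22a25, Slc22a8, Slc34a1, Slc6a18 and Slc6a20b), among those at low signal in 0 of 33, and among the rest in 3 of 32 (Slc16a7, Slc22a24 and Slc7a12). These are matches of letters in the reference sequence, and the sequence of the Dahl and SHR strains was not analysed here.

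Of 23 named carriers called over both ages, Slc17a3 and Slc2a5 kept their call under all 21 alternatives of processing and testing. Not all of the 21 could have changed these calls. Both genes are read by a single probe set, so choosing the second brightest probe set left their values as they were. A looser threshold of the adjusted p cannot lose a call either. For 1 of the dim carriers, Slc4a10, the call was lost only with the tubular score as a covariate (adjusted p = 0.060).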

How the data were processed

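Glomerular RNA of 8 rats was hybridised to Affymetrix rat genome arrays of short oligonucleotides. The deposited log2 values had been background-corrected, normalised between arrays and summarised per probe set by the authors; RMA and GCRMA are named in the notes, and which of them was applied is not stated there. Of 31099 probe sets 57 controls were left out. The annotation gave 1 symbol for 20826, several for 436 and none for 9780. The 119 carriers have 155 probe sets; the one with the highest mean was used.

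Group means were fitted with limma 3.58.1 in R 4.3.3 (4 residual and 0.921 prior degrees of freedom), with Benjamini-Hochberg adjustment over all 31042 probe sets; the scripts were tested on simulated data. Named genes are the 10 largest called rises and falls, up to 4 per list by p, up to 5 per direction of the other comparisons, and 15 chosen carriers; others named were picked after their values were seen. Members, lists and tests were chosen with earlier results of these data known. The labels call the arrays biological replicates. Arrays of a group correlated at 0.989 to 0.997. Deviations of same-numbered arrays correlated at -0.225 to 0.236, so the numbers do not pair them. Promoters came from RefSeq (GRCr8). The number of arrays limits the precision. Alternatives are given in the closing section.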

Additional observations from a re-analysis of the deposited data

Results flagged for a closer look

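Slc2a8, the intracellular glucose transporter GLUT8, had differences of opposite sign at the 2 ages, of which that at 4 weeks did not pass the test (-0.05, limma adjusted p = 0.56, against 0.39 and 0.044 at 6 weeks). At 4 weeks it was at 6.08 and 6.05 in Dahl rats and at 6.11 and 6.11 in SHR rats, so both Dahl rats were lower. At 6 weeks it was at 6.15 and 6.23 in Dahl rats and at 5.73 and 5.87 in SHR rats, so both Dahl rats were higher. The difference between strains at 6 weeks exceeded that at 4 weeks by 0.43 on the log2 scale, with an interaction p from limma of 0.14 after adjustment, which did not pass. Groups of 2 rats are too small for a test of outlying samples.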

How the results depend on the processing

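Over both ages the counts of 31 lower and 6 higher carriers depended on the setting. An intensity trend with robust variance gave 50 lower, quantile normalisation 10 lower and 2 higher, probe sets with a mean of at least 4 gave 19 lower, an adjusted p under 0.01 gave 2 lower and 1 higher and one under 0.1 gave 54 lower. When limma was given the tubular marker score as covariate, 2 were lower and 2 higher, with strain alone 3 were higher, and with the methods' t-test 2 were higher. With the replicate number as a block, which pairs no rats by the labels, 14 were lower and 2 higher, and at 6 weeks 1 was lower and 0 higher, with 0 lower in SHR rats by age. The trend also gave 29 lower and 7 higher at 4 weeks, 25 lower at 6 weeks, and 3 lower and 1 higher with age in SHR rats. Quantile normalisation gave 5 lower at 4 weeks and 1 higher at 6 weeks. The cause of these changes was not tested.

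Leaving out 1 array in turn, which assumes that the lone rat of a group varies like the others, gave 5 to 59 lower and 1 to 11 higher over both ages, 1 to 17 lower and 0 to 5 higher at 4 weeks, 0 to 38 lower and 0 to 5 higher at 6 weeks, 0 to 2 lower and 0 to 1 higher in the interaction, 0 to 21 lower and 0 to 1 higher with age in Dahl rats, and 0 to 3 lower and 0 to 2 higher with age in SHR rats. The highest count over both ages came without Dahl 6 weeks replicate 1 and the lowest without Dahl 4 weeks replicate 2. The shares of all probe sets in these fits are not given here, so nothing about carriers as a class was read from the counts.

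Directions turned for Slc4a7 on its second brightest probe set (-0.013), and with the score as a covariate for Slc17a1 (0.66), Slc22a12 (0.19), Slc22a6 (0.23), Slc22a8 (0.040), Slc2a1 (0.13) and Slc34a1 (0.066). Of all 119 carriers 23 turned with it, 20 of them from below 0, and among those named Slc12a8 (0.29), Slc16a13 (0.21), Slc16a6 (0.27), Slc17a2 (0.52), Slc22a23 (0.78), Slc6a17 (0.44) and Slc6a8 (0.07) also turned up and Slc2a3 (-0.22) down, none called. Slc2a1 ranged from -0.10 to 0.040 with 1 array left out. A gap of at least 0.5 or 2 was found for 47 and 13 carriers. Signal over background could not be set per spot, since no detection calls were used.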
